A study of Mus musculus with 6 samples.

Results

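Transcripts of 7 receptor subunits for GABA, the main inhibitory transmitter of the cortex, were described in the anterior cingulate cortex (ACC). They are 5 subunits of GABA-A receptors (Gabra3, Gabra4, Gabra5, Gabrb2 and Gabrd) and both subunits of GABA-B receptors (Gabbr1 and Gabbr2). The genes were taken by symbol from a table of 14250 rows, and each of the 7 was found as 1 row. All libraries came from C57BL/6 mice whose brains were collected on postnatal day 45. One group of 3 mice had been injected intraperitoneally on postnatal day 14 with lipopolysaccharide (LPS), a bacterial endotoxin, at 50 µg per kg, and the other 3 mice had received saline without pyrogens at the same age. Each library came from the dissected ACC of 1 mouse, so a value is an average over all cells of that piece of tissue. Fewer cells of a type and less RNA per cell cannot be told apart in such samples.

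GABA-A receptors are chloride channels built from 5 subunits, most often alpha, beta and gamma types, and the choice of alpha subunit sets where a receptor sits and which drugs act on it. Receptors with a gamma subunit mostly gather at synapses and carry fast inhibition. Those with the delta subunit lie outside synapses and carry a steady, tonic current. GABA-B receptors are slower: they couple to G proteins, which open potassium channels and close calcium channels, and they need both of their subunits to reach the cell surface and signal.

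None of the 7 transcripts passed the test for a difference between LPS and saline mice, fitted across all genes with edgeR, which called 0.0982% of all genes higher and 0.189% lower. Their log2 changes, LPS relative to saline, lay between -0.12 and 0.001. The 95% intervals of all 7 lay within 0.810-fold to 1.13-fold of the saline level. What set these genes apart from each other was their level, which differed by about the same steps in both groups: Gabbr1 stood highest at 207 ± 6.86 FPKM in saline and 203.5 ± 8.98 FPKM in LPS mice, and Gabra5 lowest at 18.7 ± 1.27 and 17.2 ± 2.10 FPKM (SD, n = 3 each). FPKM is the authors' count of fragments scaled to gene length and library size. Comparing levels of different genes therefore rests on the gene lengths used, which are not given in the sources.

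Library totals ran from 36168687 to 41270737 counts, and each subunit had at least 1512 counts in every library. The tissue label was set against marker genes of 11 cell types, layers or neighbouring regions. In all 6 libraries the excitatory neuron markers had the largest sum, 7232 to 8269 CPM (counts scaled to library size) for saline mice and 7454 to 7939 CPM for LPS mice. Striatal markers summed to 158 to 168 CPM and thalamic markers to 74.4 to 91.3 CPM over all libraries. No marker gene was at 0. None of the 77 measured markers was called by edgeR, and 9 had an unadjusted p under 0.05, as did 7.17% of all genes. Summed levels of the groups overlapped in 10 lists: excitatory neurons (highest gene Camk2a), upper layers (Rasgrf2), deep layers (Etv1), astrocytes (Slc1a2), oligodendrocytes, their precursors (Olig1), microglia (Csf1r), endothelium (Flt1), striatum (Ppp1r1b) and thalamus (Zic1). Slc1a2 split the libraries across the groups, with 752 to 966 CPM in Saline 1, Saline 2 and LPS 3 and 3365 to 3755 CPM in the others. The list whose groups did not overlap was that of interneurons (highest gene Sst), whose sums were 464 to 513 CPM for saline mice and 526 to 540 CPM for LPS mice.

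The genes lie on 6 chromosomes of the mouse genome (build GRCm38, GENCODE M21). Gabra3 is on chromosome X at 72432681 to 72656848 on the minus strand, and Gabrb2 on chromosome 11 at 42419757 to 42629028 on the plus strand. Gabra4 is on chromosome 5 at 71569749 to 71658308, minus strand, and exons at its 5′ end share 46 bases with Gabrb1 on the opposite strand. That is 0.756% of its exonic length, and the library kit is not stated to keep the strand. Gabra5 is on chromosome 7 at 57407672 to 57510059, minus strand. Chromosome 4 carries 2 of the genes, Gabrd at 155384980 to 155398112 and Gabbr2 at 46662305 to 46991873, both on the minus strand. Gabbr1 is on chromosome 17 at 37045966 to 37075067 on the plus strand. The other 6 genes shared no exonic base with another tested gene.

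RefSeq windows of 250 bases before an annotated start (GRCm38.p6) were found for 6 of the 7 genes, in 9 windows, and not for Gabrd. They are shown for 3 genes because the starts of genes with high and intermediate levels differ widely in base composition. A link between composition and level was not tested. Capitals mark matches, on either strand, to the TATA box TATAAA, the GC box GGGCGG or the EGR motif GCGNGGGCG, and an EGR match may overlap a GC box match. None of the shown windows touches an exon annotated in GENCODE M21. They are chr17:37045716-37045965 on the plus strand, chr11:42420190-42420439 on the plus strand and chrX:72656920-72657169 on the minus strand, each written 5′ to 3′.
Gabbr1: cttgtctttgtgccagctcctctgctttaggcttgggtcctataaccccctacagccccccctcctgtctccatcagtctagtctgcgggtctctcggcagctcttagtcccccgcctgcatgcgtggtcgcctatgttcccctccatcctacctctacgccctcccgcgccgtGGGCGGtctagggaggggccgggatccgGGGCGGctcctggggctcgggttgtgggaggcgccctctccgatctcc
Gabrb2: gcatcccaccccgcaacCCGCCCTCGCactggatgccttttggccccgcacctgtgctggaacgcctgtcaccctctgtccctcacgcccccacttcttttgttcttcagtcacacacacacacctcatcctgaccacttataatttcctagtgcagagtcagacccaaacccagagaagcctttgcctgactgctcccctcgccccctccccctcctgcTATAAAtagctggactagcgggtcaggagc
Gabra3: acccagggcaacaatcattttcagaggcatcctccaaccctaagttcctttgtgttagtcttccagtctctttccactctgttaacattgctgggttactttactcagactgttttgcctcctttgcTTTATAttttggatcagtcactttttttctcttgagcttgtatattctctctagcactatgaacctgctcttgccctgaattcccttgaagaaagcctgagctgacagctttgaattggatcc

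The Gabbr1 window had 66.0% G and C, 16 CpG pairs and 2 GC box matches. The Gabra3 window had 42.4% G and C, 0 CpG pairs and 1 TATA box match, and the Gabrb2 window shown had 58.8% G and C, with 1 match each to the TATA box, the EGR motif and, overlapping the latter, the GC box. Gabrb2 has 3 windows, all inside the gene span given above, and the one with matches was picked for display after the search. The other two had 54.0% and 36.8% G and C, and 0 matches to any motif searched. Gabra3 has a second window, which overlaps the one shown and holds the same TATA box match at 39.2% G and C. Over all 32851 windows of this length the median was 52.4% G and C. A TATA box match was present in 12.4% of them, a GC box match in 32.7% and an EGR match in 4.70%. The Gabbr2 window was richest in G and C among the 9, at 80.8% with 37 CpG pairs, though 159 of its bases lie in annotated exons. Of the genes with lower levels, Gabra4 had 61.2% G and C and 2 GC box matches, with 55 bases in annotated exons. Gabra5 had 56.4% G and C and 0 matches to any motif searched. The cAMP response element TGACGTCA (1.55% of all windows) and the E-box CACGTG (6.02%) had 0 matches in the 9 windows. These matches are letters in a window and carry no measurement of binding.

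Levels per length separated into a clear upper part and a crowded lower part. Gabbr1 was 2.51-fold above Gabbr2 in saline mice and 2.47-fold in LPS mice, Gabbr2 was 1.78-fold and 1.82-fold above Gabra3, and Gabra3 was 1.85-fold above Gabrb2 in both groups. The libraries of each of these neighbours did not overlap in either group. Below them, Gabrb2 (25.1 ± 2.03 FPKM in saline), Gabrd (21.9 ± 1.91) and Gabra4 (20.5 ± 0.216) followed, and the ranges of Gabrb2 and Gabrd, and of Gabrd and Gabra4, overlapped in both groups. Gabra4 and Gabra5 did not overlap in saline mice but did in LPS mice. Among all rows of the table the mean levels lay between the 75.8th percentile (Gabra5) and the 98.8th percentile (Gabbr1). The steps and the order rest in part on the scaling to length. In CPM, saline means were 786 for Gabbr1 and 518 for Gabbr2. Gabrd (45.8 CPM in saline, 44.8 in LPS) was then below Gabra5 (49.4 and 46.2).

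**Figure D1:**
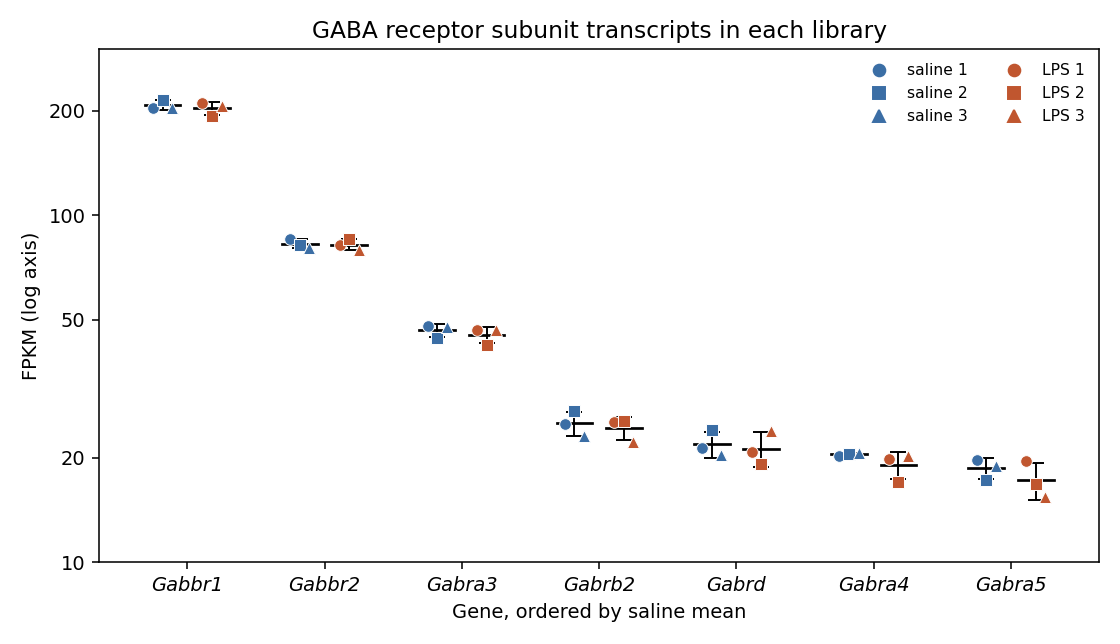
FPKM of each subunit in each library on a log axis, with saline in blue and LPS in orange; symbols mark the replicate, horizontal lines the group mean and bars 1 SD (n = 3). Gabbr1, Gabbr2 and Gabra3 stand apart from the rest, while the other 4 subunits lie between 15.4 and 27.2 FPKM.

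Among the alpha subunits, Gabra3 was the most abundant of the 3 described here. It codes for alpha3, a synaptic subunit strong in deep cortical layers. It had 47.9, 44.3 and 47.5 FPKM in the saline libraries and 46.6, 42.4 and 46.6 FPKM in the LPS libraries. The groups overlapped, with the lowest value of each group in replicate 2. The log2 change was -0.04 (SE 0.0619, 95% interval -0.18 to 0.10, edgeR adjusted p = 0.929).

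Gabra4 codes for alpha4, which often joins the delta subunit outside synapses and does not bind classical benzodiazepines such as diazepam. Its saline values were close together, at 20.27, 20.6 and 20.7 FPKM, and its LPS values were 19.9, 17.1 and 20.26 FPKM. Every LPS library therefore lay below every saline library, though LPS 3 and Saline 1 all but met, and LPS 2 lay farthest below. In CPM the groups did not overlap either (89.3 to 92.2 in saline, 76.2 to 88.7 in LPS). It was the only one of the 7 with groups apart in CPM, and over all genes 13.7% had groups apart in either direction and 6.84% had all LPS values lower. The log2 change was -0.12 (SE 0.0660, 95% interval -0.27 to 0.03, edgeR adjusted p = 0.760), and -0.06 without LPS 2.

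Gabra5 codes for alpha5, a subunit found mainly outside synapses in hippocampus and deep cortex. It had 19.8, 17.3 and 19.0 FPKM in saline and 19.5, 16.8 and 15.4 FPKM in LPS libraries. LPS 3 was the lowest of the 6 and LPS 1 the second highest, so the LPS group spread more widely, with a coefficient of variation of 12.2% against 6.80% in saline. The log2 change was -0.10 (SE 0.0927, 95% interval -0.30 to 0.11, edgeR adjusted p = 0.855), and it went to -0.02 without LPS 3 and -0.03 without Saline 1.

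Gabrb2 codes for beta2, which forms the GABA binding site together with an alpha subunit. Its values were 25.0, 27.2 and 23.2 FPKM in saline and 25.4, 25.5 and 22.2 FPKM in LPS libraries. In both groups replicate 3 was the lowest, and the groups overlapped (log2 -0.03, SE 0.0828, 95% interval -0.22 to 0.15, edgeR adjusted p = 0.954).

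Gabrd codes for delta, a subunit of tonic receptors that respond to neurosteroids. It had 21.3, 24.0 and 20.3 FPKM in saline and 20.7, 19.2 and 23.9 FPKM in LPS libraries. The lowest value and the second highest were both in LPS mice, with full overlap of the groups (log2 -0.03, SE 0.0937, 95% interval -0.24 to 0.18, edgeR adjusted p = 0.961). It had the widest SE of the 7 genes.

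Of the GABA-B subunits, Gabbr1 had the smallest SE of the 7 genes. It codes for the subunit that binds GABA, and its isoforms, which differ at the outer end of the protein, are summed in these gene counts. It had 203, 215 and 203 FPKM in saline and 211, 193.5 and 206 FPKM in LPS libraries. LPS 2 was the lowest and Saline 2 the highest of the 6. The log2 change was -0.01 (SE 0.0507, 95% interval -0.13 to 0.10, edgeR adjusted p = 0.975).

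Gabbr2 codes for the partner that brings the receptor to the surface and couples it to G proteins. It had 85.4, 82.1 and 80.5 FPKM in saline and 81.9, 85.3 and 79.5 FPKM in LPS libraries. Highest values were nearly equal in the groups, and the log2 change was 0.001 (SE 0.0629, 95% interval -0.14 to 0.14, edgeR adjusted p = 0.999).

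Read together, 6 of the 7 log2 changes were below 0 and 1 was above, with a median of -0.03. Over all genes the median was 0.001, and 49.6% of the changes were below 0. In edgeR 0 of 7 subunits passed in either direction, where 0.0982% of all genes were called higher and 0.189% lower. At an unadjusted p under 0.05 there were 0 of 7 subunits and 7.17% of all genes. DESeq2 and limma-voom also called 0 of 7, with 0.982% and 0.239% of all genes called, and had 0 at an unadjusted p under 0.05. A share of 0 among 7 genes is near these backgrounds.

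**Figure D2:**
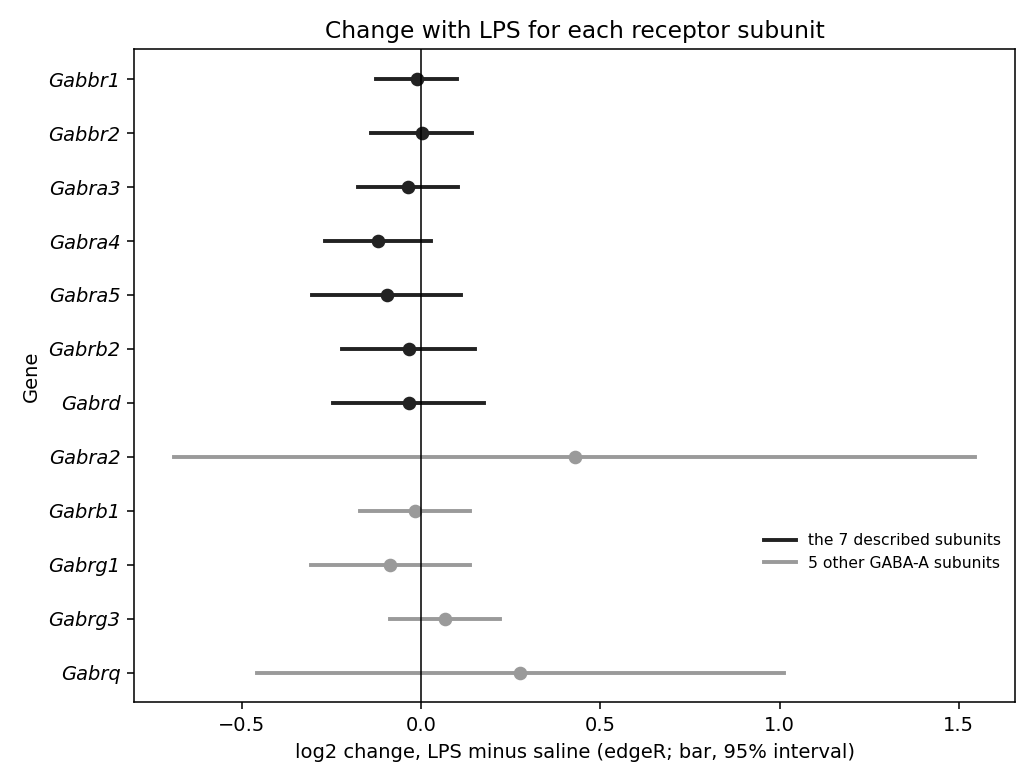
Log2 change (LPS minus saline, edgeR) of the 7 subunits in black and 5 other GABA-A subunits in grey, with bars for the 95% interval. All 7 black intervals include 0 and lie between -0.30 and 0.18, while Gabra2 and Gabrq have much wider intervals.

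Subunit ratios within a library do not depend on its depth, and 6 of the 8 computed are described here. The GABA-B pair gave a Gabbr1 to Gabbr2 ratio of 2.38, 2.62 and 2.52 in saline and 2.57, 2.27 and 2.59 in LPS libraries. LPS 2 had the lowest ratio and the groups overlapped. The mean ratio was 2.51 ± 0.120 in saline and 2.48 ± 0.182 in LPS mice (SD, n = 3 each), a log2 difference of -0.02 (SE 0.0742).

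For the extrasynaptic partners, the Gabrd to Gabra4 ratio was 1.05, 1.17 and 0.983 in saline and 1.04, 1.12 and 1.18 in LPS libraries. The groups overlapped and the transcripts were near parity per length in all 6 libraries (log2 difference 0.07, SE 0.0888). In CPM, which is not scaled to length, saline means were 90.3 for Gabra4 and 45.8 for Gabrd.

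Between alpha subunits, the Gabra5 to Gabra4 ratio was 0.976, 0.841 and 0.919 in saline and 0.984, 0.983 and 0.761 in LPS libraries. LPS 3 was lowest and the other LPS libraries were highest. The mean Gabra5 to Gabra3 ratio was 0.401 ± 0.0116 in saline and 0.382 ± 0.0460 in LPS mice, and the Gabra4 to Gabra3 ratio 0.441 ± 0.0210 and 0.421 ± 0.0165 (SD, n = 3 each). Alpha3 transcripts thus exceeded those of alpha4 and alpha5 in every library of both groups.

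The summed FPKM of both GABA-B subunits over that of the 5 GABA-A subunits was 2.15, 2.23 and 2.17 in saline and 2.22, 2.31 and 2.22 in LPS libraries. Saline 2 lay above LPS 1 and LPS 3, so the groups overlapped (log2 difference 0.04, SE 0.0237). An exact two-sided permutation test over the 6 libraries gave p from 0.3 to 1.0 for the 8 ratios, and 0.914 to 1.0 after Benjamini-Hochberg adjustment over the 8. With 3 against 3 this exact test cannot go below 0.1, so it cannot pass a threshold of 0.05.

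**Figure D3:**
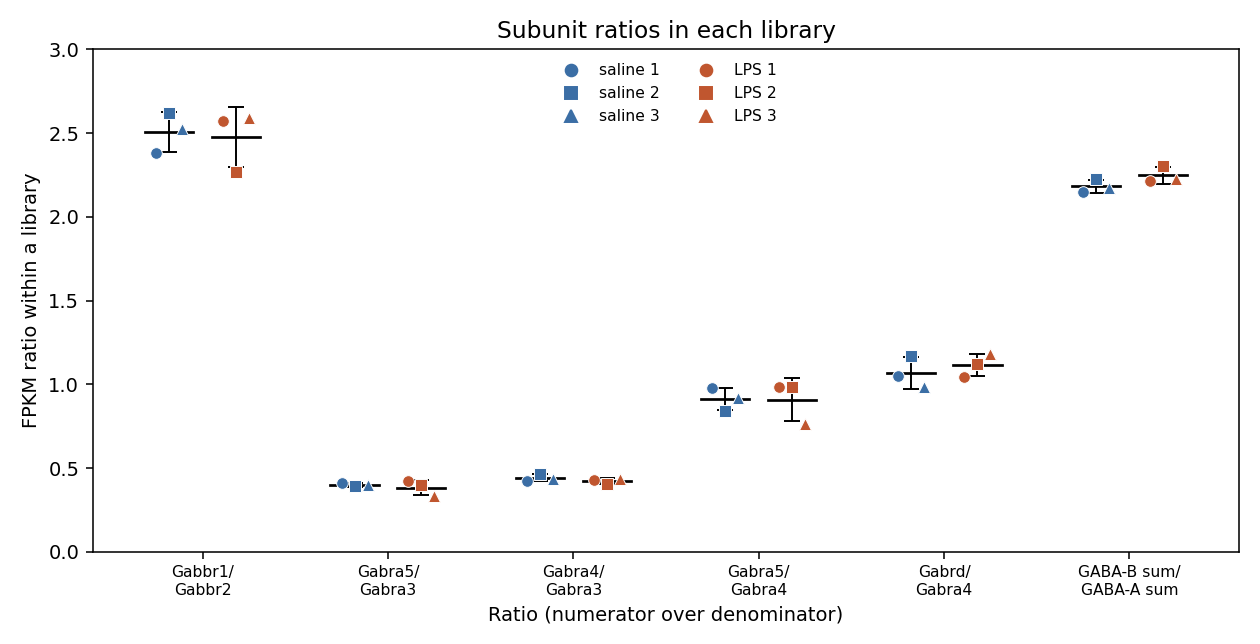
FPKM ratios within each library for 6 subunit ratios, with saline in blue and LPS in orange, lines for group means and bars for 1 SD (n = 3). The groups overlap in every ratio shown, and the Gabbr1 to Gabbr2 ratio is lowest in LPS 2 at 2.27.

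Each subunit's share of the summed FPKM of the 7 was also taken in each library. Gabbr1 made up 48.1% to 50.0% in saline and 48.4% to 49.8% in LPS libraries, and Gabbr2 19.1% to 20.2% and 19.2% to 21.3%. The GABA-A subunits shared the rest, led by Gabra3 at 11.0% ± 0.643 in saline and 10.9% ± 0.325 in LPS mice (SD, n = 3 each). Gabra5 had the smallest mean share in both groups, 4.42% ± 0.358 and 4.17% ± 0.438. No mean share differed between the groups by more than 0.385 percentage points, the value for Gabbr2, which was smaller than its SD in either group. The mean share of Gabra4 differed by -0.240 points, more than its saline SD of 0.119 but less than its LPS SD of 0.314.

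Likeness of pattern was measured as the root mean square difference of log2 CPM over the 6 libraries, each gene centred on its own mean, where a smaller value is more alike. Among the 65 other members and GABA genes listed for this description, Gabbr2 was most like Kctd12, an auxiliary subunit gene of GABA-B receptors (0.0206, against a spread of its own of 0.0631 on the same scale). Gabbr1 was most like Gnb1, a G protein beta subunit gene (0.0216, against its own spread of 0.0284). Gabra3 and Gabra5 were both nearest to Nsf, a membrane fusion ATPase gene (0.0463 and 0.0815, against own spreads of 0.0605 and 0.123). Gabrb2 was nearest to Slc12a5, the neuronal chloride exporter gene (0.0493, against 0.104), and Gabrd to Rgs4, a regulator of G protein signalling (0.0706, against 0.114). Over the 12417 other genes with a mean of at least 100 counts, the nearest were Atp6v1d for Gabra3, Sms for Gabra4, Jup for Gabra5, Gm9938 for Gabrb2, Serf1 for Gabrd, Mtus2 for Gabbr1 and Gtf3c1 for Gabbr2, with differences from 0.0125 to 0.0289. With 6 libraries and this many genes searched, a close match is a description of these libraries.

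The rest of the GABA signalling pathway was read from 4 lists with 59 measured genes of 66 listed. In edgeR 0 of the 59 passed in either direction, with 3 at an unadjusted p under 0.05, and DESeq2 and limma-voom called 0, with 1 and 4 at an unadjusted p under 0.05. Over all genes the share at an unadjusted p under 0.05 was 7.17% in edgeR, 6.58% in DESeq2 and 7.38% in limma-voom. Among the 8 other measured GABA-A subunits the median log2 change was 0.01. Gabrg3, a gamma subunit gene, had a value of 0.07 (SE 0.0678), and its groups overlapped.

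Gabra2, which codes for a synaptic alpha subunit, varied within the LPS group and is named after its values were seen. Saline libraries had 43.2, 46.2 and 46.1 CPM of it, and LPS libraries 29.5, 80.2 and 72.6 CPM. LPS 1 was thus the lowest of the 6 and the other LPS libraries the highest. The log2 change was 0.43 (SE 0.415, edgeR adjusted p = 0.869), and without LPS 1 it was 0.76 (SE 0.0739, edgeR adjusted p = 0.00354). That fit leaves out the LPS library that went the other way, so its p-value is no support for a change.

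GABA-B partners and effectors, 16 measured genes of G proteins, potassium and calcium channels and auxiliary subunits, had a median log2 change of 0.01, with 8 above 0 and 8 below. The smallest p-values belonged to Rgs4 (log2 -0.16, SE 0.0858), Cacna1b, a presynaptic calcium channel gene (0.12, SE 0.0656), and Kctd8, an auxiliary GABA-B subunit gene (-0.23, SE 0.129). None of the 3 passed, with edgeR adjusted p from 0.756 upward. Kctd8 was the only gene of this list with groups apart, lower in every LPS library, as were 6.84% of all genes.

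Anchoring and trafficking genes of GABA-A receptors, 21 measured, had a median log2 change of 0.05, with 13 above 0. The level of Nlgn2, an adhesion protein gene of inhibitory synapses, was 352 ± 23.3 CPM in the saline group and 384.5 ± 6.73 CPM in the LPS group (SD, n = 3 each). Its log2 change was 0.13 (SE 0.0606, edgeR adjusted p = 0.718). In this list 2 genes, Nlgn2 among them, were higher in every LPS library, as were 6.84% of all genes. Shisa7, an auxiliary GABA-A receptor subunit gene (0.16, SE 0.0771), and Hap1, a receptor transport gene (0.22, SE 0.112), overlapped between the groups.

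Genes of GABA synthesis, transport and chloride balance, 14 measured, had a median log2 change of -0.01, with 4 members higher in every LPS library, as were 6.84% of all genes. Gad2, a GABA-synthesizing enzyme gene, stood at 108, 103 and 126 CPM in saline libraries and at 139, 131 and 138 CPM in LPS libraries (log2 0.27, SE 0.0788, edgeR adjusted p = 0.414). Srd5a1, an enzyme gene of neurosteroid synthesis, was at 0.22 on the log2 scale and did not pass (SE 0.0974, adjusted p = 0.696 in edgeR). The summed interneuron markers were also higher in every LPS library, as given above, with 9 of 10 log2 changes above 0 and a median of 0.13. Other marker lists leaned the same way, but their summed levels overlapped between the groups. Changes above 0 were 7 of 7 for deep layers (median 0.14), 3 of 3 for oligodendrocyte precursors (0.12) and 5 of 8 for striatum (0.19). At an unadjusted p under 0.05 in edgeR were 3 of the 10 interneuron genes and 1 gene in each of these 3 lists. Over all genes that share was 7.17%. Medians of the other marker lists lay from -0.09 for upper layers to 0.04 for endothelium. The part of interneurons in these values was not tested.

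**Figure D4:**
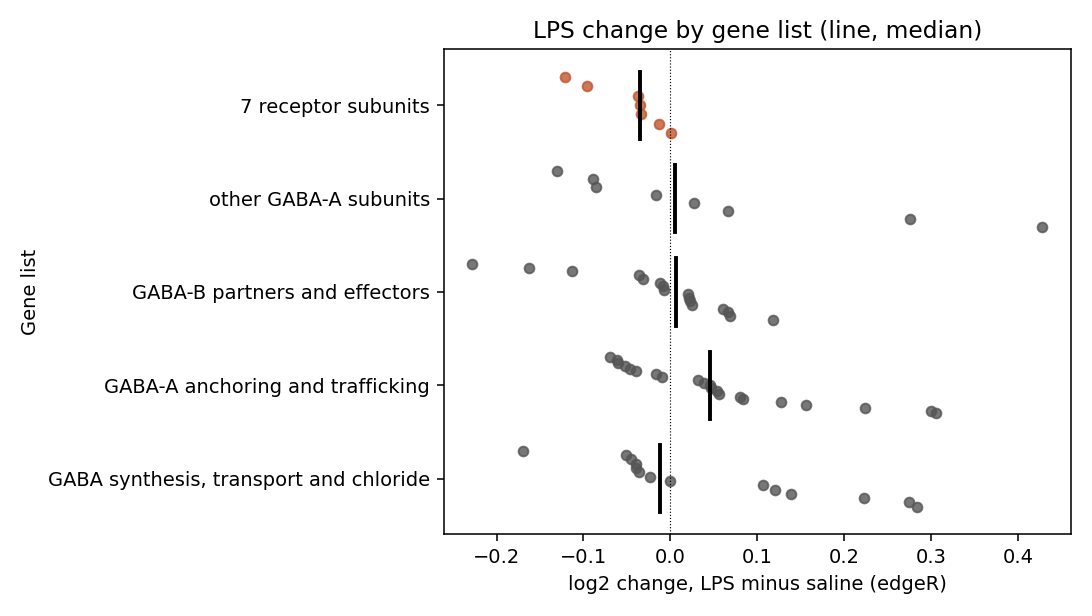
Log2 change (LPS minus saline, edgeR) of each gene, by list, with the 7 receptor subunits in orange, other lists in grey and a vertical line at each median. The medians lie between -0.03 for the 7 subunits and 0.05 for anchoring and trafficking genes.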

How the data were processed

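Gene expression was measured by sequencing polyadenylated RNA of 6 ACC samples, 3 from saline and 3 from LPS mice. The deposited table gives, for each gene, raw counts of reads and the authors' FPKM in all libraries. The tools named per the submitters' processing notes are TopHat2 2.1 and DESeq 1.10.1, and the build is GRCm38. How each was used, which program counted reads, which gene lengths entered the FPKM and whether rows were filtered is not given in the sources used. FPKM per count of each of the 7 genes, divided by its own value in Saline 1, departed from each library's median of that quotient over all genes by at most 2.58%.

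The test of the counts was edgeR 4.0.16's robust quasi-likelihood fit with TMM factors, run in R 4.3.3 on all 14250 rows, with treatment as the only term. filterByExpr removed 0 rows, and 688 rows were named newGene. Two-sided p-values were adjusted over all rows (Benjamini-Hochberg), and the threshold was 0.05. CPM used TMM factors. Likeness used log2 CPM with a prior count of 2. Ratios used FPKM without a pseudocount and an exact permutation test in SciPy 1.17.1.

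The members and the 4 pathway and 11 marker lists were chosen with earlier results of these data known. Named genes are all members, those of smallest p (up to 3) in each pathway list, the highest gene of each marker list, and the most alike genes. Results for some of these genes, and the 2 ratios that use them, are not reported here.

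Alternatives were a replicate block, fits that each lacked 1 library, RLE factors, DESeq2 1.42.0, limma-voom (limma 3.58.1), keeping every row, keeping rows that averaged 50 counts or more, limma on log2(FPKM + 1) with a mean FPKM of at least 0.5, a threshold of 0.1 and, added after seeing the data, leaving out the newGene rows. The edgeR step was tested on simulated counts. Any 2 libraries differed by a chi-square of at least 32.1 per degree of freedom, so none was a duplicate.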

Additional observations from a re-analysis of the deposited data

How the results depend on the processing

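None of the 7 subunits was called under any alternative run, with adjusted p of at least 0.715. Without 1 library, log2 changes ran from -0.17 to -0.063 for Gabra4, -0.175 to -0.022 for Gabra5, -0.079 to 0.004 for Gabra3, -0.104 to 0.030 for Gabrb2, -0.124 to 0.027 for Gabrd, -0.037 to 0.001 for Gabbr1 and -0.043 to 0.047 for Gabbr2, so 5 of them crossed 0. Gabbr2 was at -0.007 in limma on FPKM. Over all genes, DESeq2 called 60 higher and 80 lower, against 14 and 27 in edgeR. Genes called higher were 8 in limma on FPKM and 23 at a threshold of 0.1, and the cause was not tested apart from the looser threshold. Pathway genes called higher without 1 library were 0 to 1, the 1 being Gabra2 without LPS 1. All 8 ratios moved by less than their SD under every alternative.

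No sign was seen that the replicate numbers pair the samples. Correlations of same-numbered deviations over genes were -0.0333, 0.0340 and 0.0523, and those of differently numbered ones ran from -0.0878 to 0.0534. With 3 mice per group these values cannot exclude a pairing. With the replicate block, edgeR called 10 genes higher and 21 lower and 0 of the 7 subunits (Gabra4 log2 -0.12, edgeR adjusted p = 0.839), and the paired ratio differences equal the unpaired ones by construction (Gabbr1 to Gabbr2, -0.02). The printed 95% intervals are not adjusted over genes, and the smallest change that 3 mice per group could show was not measured.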
